A study of Drosophila melanogaster with 4 samples.

Results

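Weak Su(Hw) peaks that sit beside strong ones on the autosomes of Drosophila melanogaster are described here. They are peaks on 2L, 2R, 3L, 3R or 4 with a score below 45 and at most 1000 bp between their edge and the edge of a peak scoring 45 or more, called strong below. There were 794 such flanking peaks among 5357 peaks of the series, 4141 on the autosomes and 1312 weak autosomal ones. The other 518 weak autosomal peaks, with no strong peak within 1000 bp, are said to stand apart. The flanking peaks were chosen by their score, their partner's score and their gap, so these values are given as a description without a test.

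Su(Hw), or Suppressor of Hairy-wing, binds DNA through an array of zinc fingers. Its classic target is the insulator inside the gypsy retrotransposon, where it works with the cofactors Mod(mdg4) and CP190. An insulator limits the reach of enhancers and of silent chromatin when it lies between them and a promoter. Most Su(Hw) sites of the genome lie outside gypsy, and in the ovary the protein is also known to repress neuronal genes. In chromatin immunoprecipitation followed by sequencing (ChIP-seq), a peak is a stretch where DNA fragments recovered with the antibody pile up, so its width reflects fragment size and signal strength as well as the bound site.

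Occupancy was measured in whole white prepupae, the brief immobile stage at the start of metamorphosis. The labels list 2 libraries immunoprecipitated with an affinity-purified polyclonal rabbit antibody against Su(Hw) and 2 libraries of input DNA, all from the strain Y cn bw sp. Both groups carry the body and eye colour alleles y[1], cn[1] and bw[1] together with sp[1], the gustatory receptor alleles Gr22b[1] and Gr22d[1], and the rhodopsin allele Rh6[1]. The genotype further lists oc[R3.2], lab[R4.2] and CG33964[R4.2], and LysC[1], GstD5[1] and MstProx[1]. No other strain was compared. Whole animals mix many tissues, and fewer cells with a bound site cannot be told apart from weaker binding in each cell. The data are 1 peak list with no values per library. The depth is unknown, the spread between replicates cannot be given, and no test between samples was possible. Intervals below are at 95% and cover counting error only. They assume independent peaks, which fails where flanking peaks share a strong neighbour.

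The flanking peaks were small and low. Their median width was 328 bp (interval 317 to 340, quartiles 250 and 472, range 201 to 1924 bp), and 77.1% were narrower than 500 bp. A width of 201 bp, the smallest in the whole list, was found for 28 of them. Their median score was 12.1 (quartiles 9.81 and 15.8, range 5.95 to 42.98). The nearest strong peak, called the partner, had a median width of 3471 bp and a median score of 382 over the 794 pairs. A flanking peak thus spanned a median of 0.107 of its partner's width (quartiles 0.0671 and 0.176). Only 4 of the 794 were wider than their partner, and in these 4 the partner scored between 46.51 and 70.81.

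Gaps were short. The median was 189.5 bp (interval 176 to 207, quartiles 98 and 341 bp), and 51.9% of the flanking peaks lay within 200 bp of the strong edge. Within 500 bp there were 686 of the 794. No gap was below 44 bp, which was also the smallest gap between any neighbouring autosomal peaks. The class of 1 to 50 bp held 48 flanking peaks, all with gaps of 44 to 50 bp, and the class of 51 to 100 bp held 158. The first class was thus filled over only a few bases, and its lower count does not mean that such gaps were rarer. Per base, gaps were more frequent from 44 to 50 bp than from 51 to 100 bp. Whether the flanking peaks have a preferred spacing was not tested.

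The numbers fell away steadily with distance and had no step at 1000 bp. There were 412 weak peaks with a gap of up to 200 bp, 223 from 200 to 400 bp, 82 from 400 to 600 bp, 47 from 600 to 800 bp and 30 from 800 to 1000 bp. The next 200 bp, just outside the limit, held 19. From 2000 to 3000 bp the count per 200 bp was 9.2, and from 5000 to 10000 bp it was 4.2. The size of the weak peaks showed no steady change out to 1200 bp, where the median score of the 6 classes of 200 bp ran from 10.73 to 13.01 and the median width from 266.5 to 359 bp. Farther out both were higher, with a median score of 15.4 and a median width of 404 bp at 1200 to 2000 bp, and of 20.9 and 509.5 bp at 10000 to 50000 bp.

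**Figure D1:**
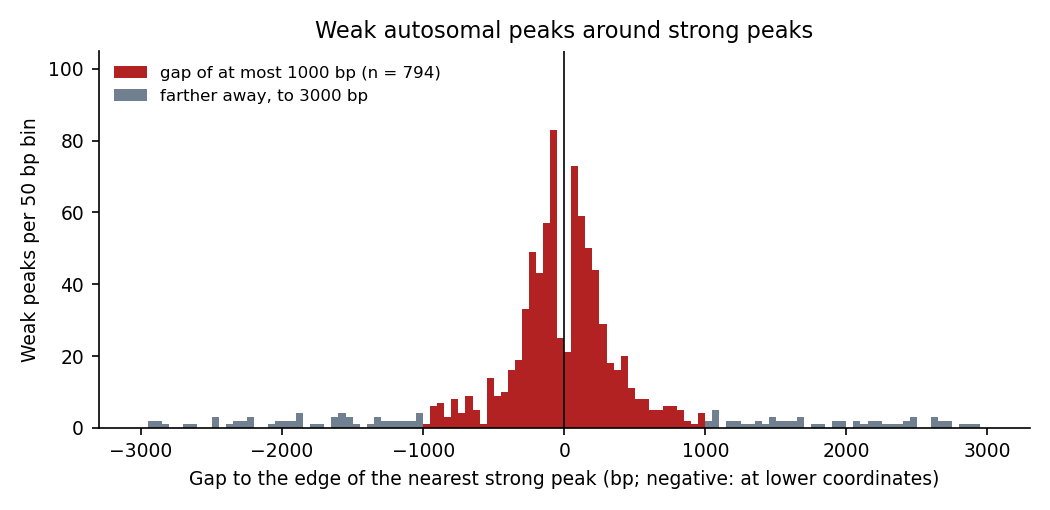
Number of weak autosomal peaks per 50 bp of gap to the nearest strong peak, with negative values for weak peaks at lower coordinates; red bars are the 794 within 1000 bp and grey bars those farther away, drawn to 3000 bp. Counts are highest from 50 to 100 bp on both sides and fall off alike to the left and right.

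Some peaks lay close to the limits of the rule on either side. The flanking peaks scoring nearest below 45 had scores of 42.98 (2L:21336322-21337495), 42.83 (3L:12825029-12825877) and 42.73 (3R:16346747-16347619). The nearest peaks above the limit with another strong peak within 1000 bp scored 47.07, 47.07 and 47.62. By gap, the last inside lay 1000, 997 and 989 bp from their partners, and the first outside 1003, 1006 and 1015 bp.

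Weak peaks occurred on the low-coordinate and the high-coordinate side of strong peaks about equally often. The low side held 402 of the 794 (50.6%, Wilson interval 47.2 to 54.1%) and the high side 392. Per arm the low share was 53.3% on 2L, 49.1% on 2R, 54.9% on 3L and 46.2% on 3R, and each of these 4 intervals included 50%. The sides were also alike in size. Median gaps were 189 bp on the low side and 190.5 bp on the high side, median widths were 327 and 331.5 bp, and median scores were 12.3 and 11.8, each within the other side's interval.

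All 4 large autosomal arms held flanking peaks at similar shares of their weak peaks. These were 184 of 320 on 2L (57.5%), 163 of 282 on 2R (57.8%), 195 of 307 on 3L (63.5%) and 251 of 402 on 3R (62.4%), with overlapping Wilson intervals that together ran from 52.0 to 68.7%. The single weak peak of the small chromosome 4 was also a flanking one. On 3L the median width was 363 bp (interval 324 to 390) and on 3R it was 320 bp (interval 299 to 333), while 2L and 2R had medians of 320.5 and 330 bp. Median gaps ran from 180 bp on 2R to 211 bp on 3R.

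Most flanking peaks had a strong peak on 1 side only. A strong peak within 1000 bp on each side was found for 69 of the 794 (8.69%, Wilson interval 6.92 to 10.9%), and this share was 3.64% when the gap limit was 500 bp. The 69 had a median width of 390 bp (interval 330 to 511) against 324 bp (interval 311 to 335) for the 725 with a single strong neighbour, and median scores of 13.36 and 12.02. Their nearer gap had a median of 181 bp and the farther gap of 609 bp. The gaps were sorted by size and both limited to 1000 bp, so a difference follows from the sorting. Whether these peaks lay unevenly between the strong peaks was not tested. The 2 strong peaks around them were a median of 1344 bp apart.

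The tightest such arrangement was at 2R:4191175-4191436. This 262 bp peak, with a score of 10.73, lay 145 bp from a strong peak scoring 242.64 and 72 bp from one scoring 317.12, and those 2 were 479 bp apart. At 2L:14035103-14035325, a 223 bp peak scoring 11.69 lay 143 and 134 bp from strong peaks scoring 369.6 and 516.05. At 3R:21761850-21762079, a 230 bp peak scoring 7.26 lay 84 and 197 bp from strong peaks scoring 328.04 and 124.58. In all 3 the weak peak was narrower than either gap-facing strong peak, of which the narrowest measured 1450 bp.

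A flanking peak was nearly always the immediate neighbour of its partner. No other peak lay between them in 758 of 794 cases (95.5%, Wilson interval 93.8 to 96.7%). In 35 cases 1 other weak peak lay in between, and in 1 case 2 did. The 36 outer peaks were a median of 675 bp from the strong edge, yet were about as wide as the 758 inner ones, with medians of 331 and 328 bp.

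Beyond the flanking peak, away from the partner, the list usually held no further peak for several kilobases. The next peak in that direction lay a median of 7488 bp away (quartiles 2083 and 23557 bp). It was within 1000 bp for 141 of 793 flanking peaks (17.8%), being strong in 60 of these and weak in 81. Among neighbouring autosomal peaks of any score, 530 pairs had a gap of at most 200 bp, and 422 of these (79.6%, Wilson interval 76.0 to 82.8%) joined a weak and a strong peak, as did 1974 of all 4136 neighbouring pairs (47.7%). Pairs of weak peaks were about as close: a gap of at most 200 bp separated 21.4% of weak and strong neighbours and 19.1% of the 324 pairs of weak neighbours, and within 1000 bp the median gap was 194 bp for the former and 193 bp for the latter. Pairs of strong peaks were close far less often: 2.50% of the 1838 pairs of strong neighbours had a gap of at most 200 bp. Within 1000 bp lay 6.09% of them (112 pairs), 41.4% of weak and strong neighbours and 38.0% of weak neighbours. Among the 112 strong pairs the median gap was 234 bp (interval 187 to 313). It was 194 bp (interval 178 to 208) among the 818 weak and strong neighbours within 1000 bp. Gap and score are also the values that chose the flanking peaks, and neighbouring pairs share peaks. These shares and gaps thus describe the list, and differences between the kinds of pair were not tested.

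Seen from the strong peaks, 741 of 2829 on the autosomes (26.2%, Wilson interval 24.6 to 27.8%) had a flanking peak within 1000 bp. There was 1 flanking peak at 631 of them, 2 at 98 and 3 at 12, and no strong peak had more. Only 689 of the 741 were the nearest strong peak of a flanking peak. Flanking peaks stood on the low side alone at 338 strong peaks, on the high side alone at 326 and on both sides at 77 (10.4% of the 741, Wilson interval 8.39 to 12.8%). Strong peaks with a low-side flank had a high-side flank in 18.6% of cases (77 of 415, Wilson interval 15.1 to 22.6%), and those without one in 13.5% (326 of 2414, Wilson interval 12.2 to 14.9%). These intervals do not overlap, by a small margin, but strong peaks of all scores were pooled. The share with any flank ran from 13.2% at scores of 45 to 75 to 40.4% at 700 to 1300. The 69 flanking peaks with a strong peak on each side also count for both. Whether the sides go together at like score was not tested.

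The 3 strong peaks with the most flanking peaks, ranked by score, show the arrangement. The peak at 3R:16506585-16511732, 5148 bp wide with a score of 800.89, had low-side flanks of 616 and 397 bp at gaps of 668 and 59 bp and a high-side flank of 672 bp at 52 bp. Their scores were 14.05, 16.96 and 18.89. The peak at 3R:3307442-3312295, 4854 bp wide with a score of 686.99, had a low-side flank of 1133 bp at 49 bp and high-side flanks of 569 and 203 bp at 91 and 712 bp. In the same order, these flanks scored 34.5, 28.53 and 9.58. The peak at 2R:7124097-7129076, 4980 bp wide with a score of 536.35, had low-side flanks of 338 and 387 bp at 682 and 67 bp and a high-side flank of 420 bp at 235 bp. These 3 flanks scored 12.93, 9.96 and 9.51, so on the low side the outer flank had the higher score.

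The strongest flanked peak of each arm had a single flank, as did 631 of the 741 flanked strong peaks. On 3L the peak of score 1268.69 at 22884862-22892306 had a flank of 216 bp and score 9.57 at a gap of 62 bp. On 2R the peak of score 1217.58 at 3113144-3122908 had a flank of 315 bp and score 11.69 at 158 bp. On 3R the peak of score 1062.1 at 26307361-26313908 had one of 851 bp and score 38.53 at 735 bp. These 3 flanks are also the 3 with the highest-scoring partners of all. On 2L the peak of score 1045.74 at 3128759-3138171 had a flank of 201 bp, the smallest width in the list, and score 13.7 at 353 bp. On chromosome 4 the peak of score 867.59 at 434533-437162 had a flank of 462 bp and score 15.26 at 266 bp.

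**Figure D2:**
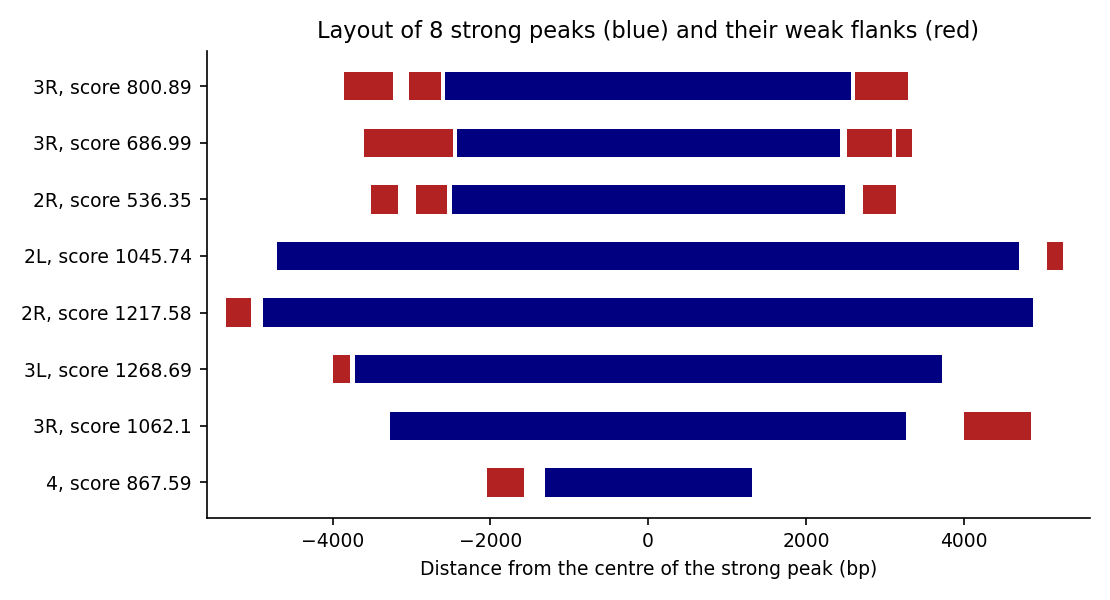
Layout of the 3 strong peaks with the most flanking peaks (top 3 lines) and of the strongest flanked peak on each autosomal arm (lower 5 lines), with strong peaks in blue and flanking peaks in red, to scale in bp from the centre of the strong peak; labels give the arm and the score of the strong peak. The upper 3 have 3 flanks each and the lower 5 have 1 each, and every flank is narrower than its strong peak.

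The widest flanking peaks and those at the smallest gap had partners of many sizes. The widest flanking peak, 3L:13642837-13644760, measured 1924 bp with a score of 20.09, and its partner 318 bp away was 1931 bp wide with a score of 119.31. The next, 3R:11080223-11081846 and 3R:17815148-17816754, measured 1624 and 1607 bp, beside partners of 6046 and 2759 bp. Their scores were 25.26 and 27.84. The first 3 peaks at the smallest gap of 44 bp were 2L:11477114-11477434, 2R:14959211-14959571 and 2R:19040480-19041023. They measured 321, 361 and 544 bp and scored 7, 12.68 and 14.4, and their partners scored 1010.7, 458.6 and 565.96.

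The size of a flanking peak had little relation to the size of its partner. Over the 794 pairs, Spearman's rho was -0.0059 between the 2 scores (interval -0.075 to 0.064), -0.0058 between the 2 widths (interval -0.075 to 0.064) and 0.040 between the gap and the partner's width (interval -0.030 to 0.109). With a score limit of 30 the last was 0.086 (interval 0.016 to 0.156). Within the 4 large arms these ranged from -0.046 to 0.073, from -0.021 to 0.039 and from 0.0035 to 0.078. Pairs share partners, and the rule limited both the gap and the score, which narrows the range over which a relation could show. The flanking peaks' own widths and scores did go together, with a rho of 0.61, as did those of the 689 distinct partners, with a rho of 0.75.

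Higher-scoring strong peaks carried a flank more often. Of strong peaks scoring 45 to 75, 13.2% had one (32 of 243, Wilson interval 9.49 to 18.0%), of those scoring 300 to 400, 27.4% (120 of 438, interval 23.4 to 31.8%), and of those scoring 700 to 1300, 40.4% (61 of 151, interval 32.9 to 48.4%). By width the share rose from 8.81% of the 159 strong peaks under 1000 bp to 40.4% of the 354 of 5000 bp or more. Width and score of strong peaks move together. Within 9 classes of score, strong peaks wider than their class median had a flank in 27.9% of cases (393 of 1410, interval 25.6 to 30.3%) and the others in 24.5% (348 of 1419, interval 22.4 to 26.8%), overlapping intervals, and the wider ones had the higher share in 6 of the 9 classes. Having flanks on both sides was uncommon in every class, between 0.662 and 4.48%.

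The flanks themselves hardly differed along this scale. From the lowest to the highest class of partner score, their median width stayed between 317.5 and 350 bp, their median score between 11.1 and 13.4 and their median gap between 149.5 and 229 bp. Over the same 9 classes the median width of the strong peaks went from 1186 to 5007 bp.

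**Figure D3:**
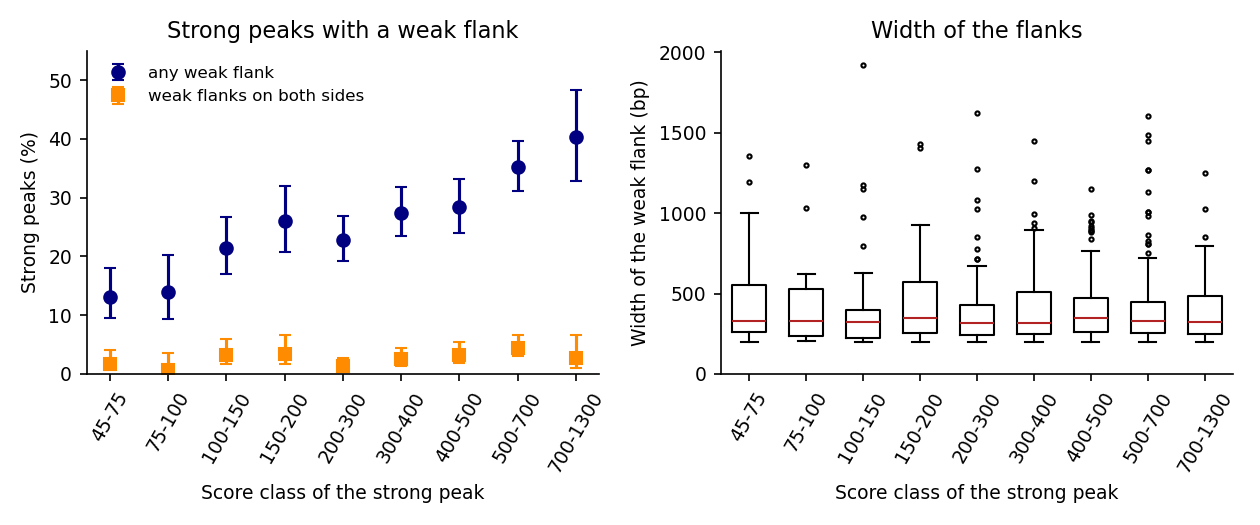
Left, percentage of strong autosomal peaks with any flanking peak (circles) and with flanking peaks on both sides (squares) by score class of the strong peak, with Wilson 95% intervals; right, widths of flanking peaks in bp by score class of the partner, as boxes from quartile to quartile with the median in red, whiskers to 1.5 times the box and points beyond. The share with any flank runs from 13.2% to 40.4%, while the median width of the flanks stays between 317.5 and 350 bp.

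The 77 strong peaks with flanks on both sides allow the sides to be compared at 1 site, using the nearest flank on each. Median widths were 310 bp on the low side and 307 bp on the high side, and median gaps 213 and 235 bp. Within a site the sides showed no clear relation in width, gap or score. Their widths differed by a median of 119 bp (quartiles 58 and 275) and their gaps by a median of 158 bp (quartiles 85 and 343). Spearman's rho between the sides was 0.0036 for width, -0.11 for gap and 0.067 for score over the 77 sites, each with an interval that included 0.

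**Figure D4:**
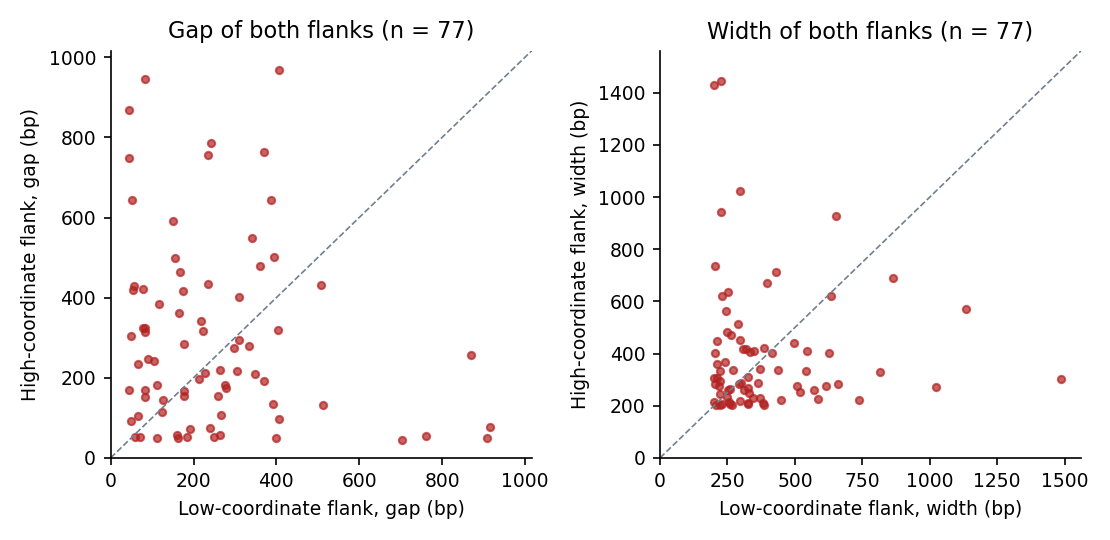
Gap (left) and width (right) in bp of the nearest flanking peak on the high-coordinate side against that on the low-coordinate side, 1 point for each of the 77 strong peaks with flanks on both sides; the dashed line marks equal values. Points scatter on both sides of the line without following it, with rho of -0.11 for gap and 0.0036 for width.

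Compared with the 518 weak peaks standing apart, flanking peaks were narrower, with medians of 328 and 470.5 bp and intervals (317 to 340 and 437 to 509 bp) that do not overlap. Peaks of 1000 bp or more made up 3.27% of the flanking peaks and 12.7% of those standing apart. Flanking peaks also scored lower, with medians of 12.1 and 19.0, and width followed score in both sets, with rho of 0.61 and 0.78.

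At like score the widths were close. Each flanking peak was divided by the median width of the standing-apart peaks in its score class, and the median of these ratios was 0.985 (interval 0.966 to 1.02). In 10 score classes the ratio of the 2 medians lay between 0.848 and 1.18 and was above 1 in 6. Below a score of 20 the medians were 307 and 324.5 bp, and from 20 upwards they were 721 and 687 bp. The intervals overlapped in both ranges.

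The flanking share of weak peaks differed by score, a value that also chose the flanking peaks. Over all weak autosomal peaks it was 60.5% (794 of 1312, Wilson interval 57.8 to 63.1%). Among weak peaks scoring 12 to 15, 76.6% were flanking (187 of 244, Wilson interval 70.9 to 81.5%), and among those scoring 40 to 45, 14.3% were (7 of 49, interval 7.10 to 26.7%). The share was 64.9% below 8 (48 of 74, interval 53.5 to 74.8%), was highest from 10 to 15 and dropped in each class from 15 upwards. From 15 to 20 it was 61.5% (118 of 192, interval 54.4 to 68.1%). The intervals below 8 and from 15 to 20 both include the share over all weak peaks. Scores below 20 covered 86.6% of the flanking peaks and 52.5% of those standing apart. Flanking peaks from a score of 20 upwards were 106, with a median gap of 163.5 bp (interval 120 to 215), and the 688 below 20 had a median gap of 193 bp (interval 177 to 210).

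**Figure D5:**
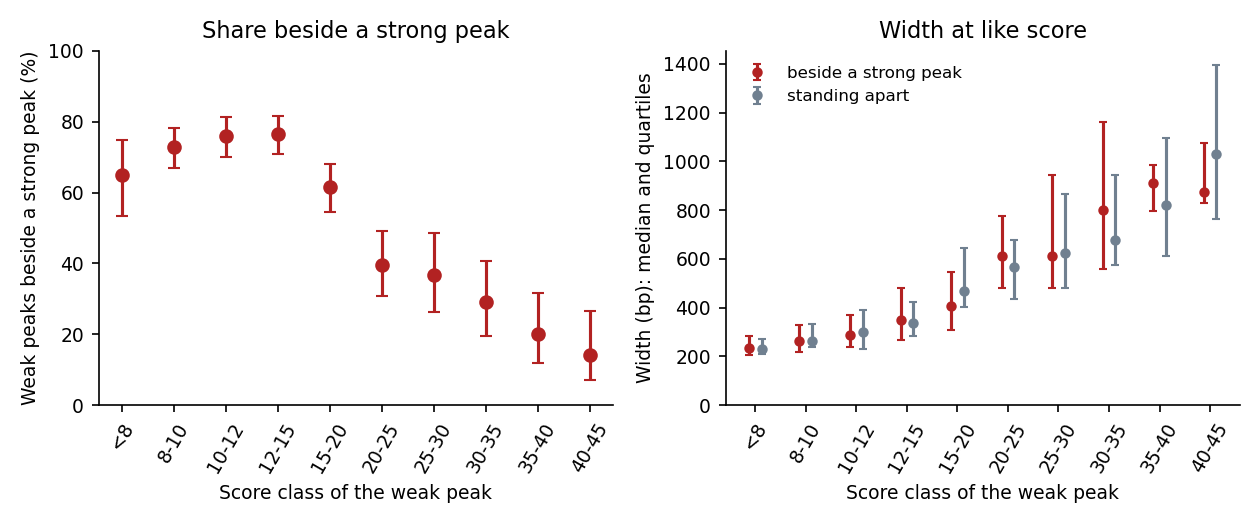
Left, percentage of weak autosomal peaks with a strong peak within 1000 bp by score class, with Wilson 95% intervals; right, width in bp of flanking (red) and standing-apart (grey) weak peaks in the same classes, as medians with quartiles. The share peaks at 76.6% in the class 12 to 15 and is 14.3% in the class 40 to 45, while the widths of both sets rise together with score.

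Flanking peaks were many but short. They made up 19.2% of autosomal peaks and 3.24% of the autosomal length under peaks, 324 of 9988 kb. Counting the gaps, the span of a partner with its flanks exceeded the partner alone by a median of 627 bp (quartiles 447 and 926 bp). Whether a flank belongs to the same binding site as its partner was not tested. For the 689 partners the median went from 3472 bp alone to 4114 bp with flanks, and the median of the single gains was 20.2%.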

How the data were processed

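White prepupae of 1 strain gave 2 Su(Hw) ChIP and 2 input libraries. The authors deposited 1 list of binding sites, each with a MACS score, per the file headers and columns, on FlyBase release 5. Tools named in the submitters' processing notes are MACS2, BWA and CASAVA (versions 1.7.0.3 and 1.7.0.2), with BDGP5 as the build. Not given in the sources used here are the scale of the score, the calling threshold, the use of the input and the pooling of replicates, so scores served only to rank and class peaks within this list. The caller's settings for merging and minimum size, also not given, could set how often 1 enriched stretch is listed as several peaks.

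Coordinates are 1-based. The gap is the number of bases between facing edges, and the partner is the strong peak with the smallest gap. Shares carry Wilson intervals, medians binomial order-statistic intervals, and rho a Fisher interval. Flank assignment was tested on simulated peaks: all 1030 flanking peaks planted beside 1000 strong ones were recovered. The simulated strong peaks were far apart, so weak peaks between strong ones or behind another weak peak were not covered. Named regions follow a rule by rank (most flanks, highest partner per arm, widest, smallest gap, tightest between strong peaks, nearest to the limits), with ties broken by arm and start. The members, lists and rules were chosen with earlier results of these data known. Alternatives were score limits of 30 and 100, a gap limit of 500 bp and 1 flanking peak per partner. The gene table at hand is on release 6, so no gene, sequence or motif was assigned. There were 0 per-sample columns to set aside. The calculations ran in Python 3.11.15 with pandas 2.3.3, SciPy 1.17.1 and NumPy 2.4.6, and matplotlib 3.10.9 drew the figures.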

Additional observations from a re-analysis of the deposited data

How the results depend on the processing

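Of 44 alternative values, 36 stayed within the interval of the value reported and 8 did not. Of the 36, 7 moved to the other side of 0 or 1, which the interval of the reported value includes in each case: rho between the scores was 0.034 with a score limit of 30 and 0.044 with a gap limit of 500 bp, rho between the widths was 0.015, 0.0036 and 0.0058 with a score limit of 30, one of 100 and a gap limit of 500 bp, and the width ratio at like score was 1.00 and 1.01 with score limits of 30 and 100. The share of weak autosomal peaks that flank a strong one was 68.6% with a score limit of 30, 44.96% with a limit of 100 and 52.3% with a gap limit of 500 bp. That gap limit also gave a median gap of 165 bp, 3.64% of flanking peaks with strong peaks on both sides and 98.8% next to their partner. With 1 flanking peak per partner, an alternative chosen after seeing the data, the median gap was 170 bp, and 100% were next to their partner by construction. Shorter limits lower gaps and two-sided shares by construction too. With a score limit of 30, rho between the gap and the partner's width was 0.086 (interval 0.016 to 0.156), which excludes 0. The side shares and median widths stayed within their intervals under each alternative run for them. No paired analysis was possible because the list holds no values per library, and no replicate could be left out for the same reason. Without read counts, a strong peak lacking a flank may have one below the depth at which it would be listed.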

Other observations

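The same rule on X, outside the autosomes, gave 177 flanking peaks among 318 weak ones (55.7%, Wilson interval 50.2 to 61.0%), whose width had a median of 338 bp (interval 292 to 373) and whose gap had quartiles of 103 and 380 bp. The sides were less even there: 70 of the 177 lay on the low-coordinate side (39.5%, Wilson interval 32.6 to 46.9%), against 50.6% (47.2 to 54.1%) on the autosomes. Flanks on both sides were found at 8 of 173 flanked strong peaks on X (4.62%, Wilson interval 2.36 to 8.86%), against 10.4% on the autosomes. Both contrasts were picked after their values were seen and were not tested.

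Scores of the flanking peaks were repeated: the 794 peaks took 279 distinct values, and 28 of them scored exactly 9.51. Each of the 4 large arms was cut into 3 equal lengths, up to the end of its last listed peak. The lowest flanking share of weak peaks was 43.9% (25 of 57, Wilson interval 31.8 to 56.7%), in the low-coordinate part of 2R. The highest was 66.7% (64 of 96, Wilson interval 56.8 to 75.3%), in the middle part of 2L. Both were picked as the extremes of all parts and were not tested. Of the 518 weak peaks standing apart, 23 had a flanking peak within 1000 bp.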
